A study of Rattus norvegicus with 69 samples.

Results

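The receptors by which natural killer (NK) cells read their targets were followed in the blood of rats that inhaled printer-emitted particles (PEPs). Of the 8 genes listed (Klrc1, Klrc2, Klrc3, Klri1, Klri2, Klrd1, Klrk1 and Ncr1), 6 had a probe set annotated to that gene alone and were kept, out of 36685 probe sets on the array, of which 14824 named exactly 1 gene. Klrc2 was read only by a probe set shared with Klrc3, and Klri1 by none. Where a gene had several probe sets, 1 was to be chosen by its mean log2 intensity over all arrays, the highest being taken. Each of the 6 genes had 1, so the rule left nothing to choose. The 8 genes were listed with results of these arrays already known, and which values led to the list is not stated. Their differences therefore describe genes singled out from these data, and the p-values are not independent evidence.

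The animals were male Sprague-Dawley rats (age at purchase, 9 weeks), which breathed either PEPs with the gases of laser printer B1 or HEPA-filtered air for 5 h per day over at most 21 days. Each arm was sampled on days 1, 5, 9 and 13 with 5 arrays, on day 17 with 5 arrays in the PEP arm and 4 in the air arm, and on day 21 with 6 arrays. A further 4 PEP and 4 air rats of day 21 carried a telemetry implant, a radio transmitter placed in the body, which gave 69 arrays in 14 groups. Whole blood was used, so all cell types of the blood were measured together. Fewer or more cells of a type and less or more RNA per cell cannot be told apart in such samples. The exposures were carried out in 2 separate years according to the labels, and the arrays are not tied to a year, so the year and the implant cannot be told apart where they go together.

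NK cells kill infected or transformed cells without prior sensitisation, and whether they do so depends on the sum of inhibitory and activating receptors. Klrd1 (CD94) is the shared subunit that pairs with members of the Klrc (NKG2) family, and the pairs bind non-classical MHC class I molecules on other cells. Klrc1 gives the pair an inhibitory tail, while the pair with Klrc2 is an activating receptor. Klrc3 is a further Klrc family member that pairs with Klrd1 in humans and mice. In the rat, Klri1 and Klri2 each pair with Klre1, Klri1 as an inhibitory and Klri2 as an activating chain. Klrk1 (NKG2D) binds ligands that stressed cells display, and is carried by CD8 T cells as well as NK cells. Ncr1 (NKp46) is an activating receptor used in many species to identify NK cells.

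Apart from Ncr1, which lies on chromosome 1 between Nlrp2 and Fcar, the listed genes stand side by side on chromosome 4 in the RefSeq GRCr8 annotation, in the order Klrd1, Klrk1, Klrc3, Klrc2, Klrc1, Klri1 and Klri2, with Klre1 before them and Klrh1 after. RefSeq GRCr8 promoter windows were matched for 6 of the 8 listed genes. The 250 bases before the start are shown for Klrc1, Klrc3 and Klri2, whose probe sets passed as higher with telemetry in both arms, and for their neighbour Klrk1, whose probe set passed in neither. All are read on the minus strand, from chr4:164838447-164838696 for Klrc1, chr4:164798759-164799008 for Klrc3, chr4:164947505-164947754 for Klri2 and chr4:164778383-164778632 for Klrk1. Capitals mark the letters TGTGGT (the core bound by RUNX factors), TCACAC (a site of T-box factors) and GGAAGT (a core bound by ETS factors), searched on both strands.
Klrc1: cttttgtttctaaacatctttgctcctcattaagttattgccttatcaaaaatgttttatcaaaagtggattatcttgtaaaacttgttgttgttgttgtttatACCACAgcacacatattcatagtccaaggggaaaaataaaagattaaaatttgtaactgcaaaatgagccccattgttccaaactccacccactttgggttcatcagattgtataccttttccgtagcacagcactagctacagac
Klrc3: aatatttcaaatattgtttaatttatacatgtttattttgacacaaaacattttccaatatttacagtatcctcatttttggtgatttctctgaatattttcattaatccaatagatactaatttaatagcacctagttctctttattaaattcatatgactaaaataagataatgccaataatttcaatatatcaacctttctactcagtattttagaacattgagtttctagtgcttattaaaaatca
Klri2: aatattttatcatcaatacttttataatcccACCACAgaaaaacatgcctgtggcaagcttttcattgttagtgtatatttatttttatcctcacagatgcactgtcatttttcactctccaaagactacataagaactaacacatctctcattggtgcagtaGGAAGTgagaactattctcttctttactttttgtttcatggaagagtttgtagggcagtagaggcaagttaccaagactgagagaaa
Klrk1: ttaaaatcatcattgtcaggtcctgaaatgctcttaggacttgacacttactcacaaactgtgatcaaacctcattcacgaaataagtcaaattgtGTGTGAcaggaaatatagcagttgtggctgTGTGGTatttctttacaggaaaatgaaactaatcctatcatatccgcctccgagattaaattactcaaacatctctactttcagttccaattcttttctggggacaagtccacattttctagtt
TGTGGT was found in 4 of the 6 matched windows (Klrc1, Klrc2, Klri2 and Klrk1), against 14.5% of all 33469 windows of the same length. GGAAGT was found in 2 (Klri1 and Klri2), against 19.2% of all windows, and TCACAC in Klrk1 alone, against 11.6%. The Klrc3 window held none of these letters. A match is a run of letters and not a measured binding site.

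Receptors of the Klrc and Klri families were higher in rats with the telemetry implant than in rats without it, in both arms. In PEP rats 5 of the 6 receptors passed the limma test as higher with telemetry (Klrc1, Klrc3, Klri2, Klrd1 and Ncr1), where 0.705% of the 34176 probe sets tested did so. In air rats 3 of the 6 passed as higher (Klrc1, Klrc3 and Klri2), where 0.214% of all probe sets did. The median log2 difference over the 6 receptors was 1.39 in PEP rats and 1.03 in air rats, beside −0.01 in either arm over all probe sets. A probe set passed at a Benjamini-Hochberg adjusted p under 0.05, adjusted over all 34176 probe sets.

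**Figure D1:**
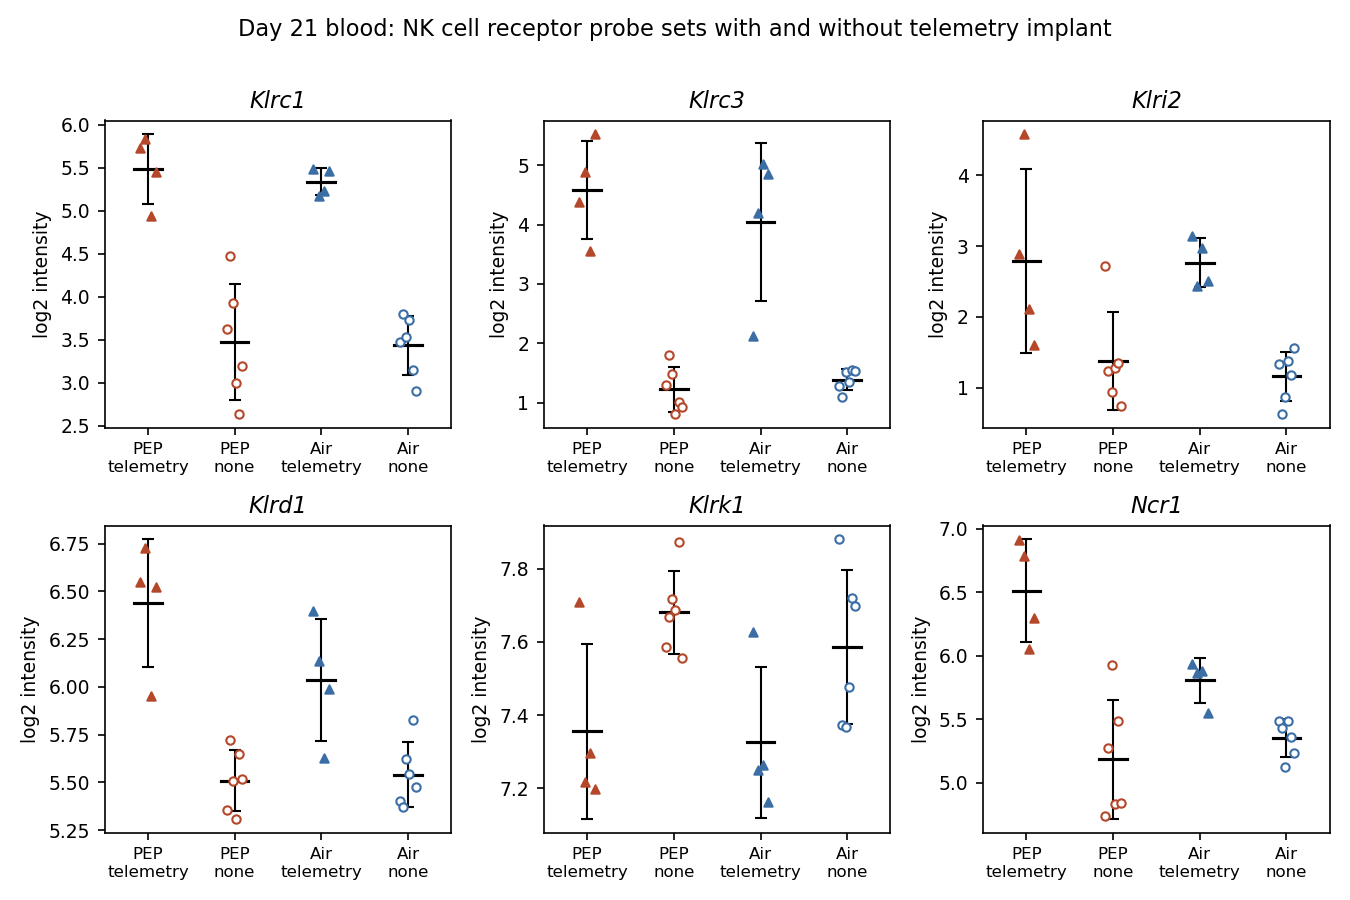
Log2 intensity of the 6 receptor probe sets in blood of day 21. Triangles are single rats with telemetry, circles single rats without, with PEP arms in red and air arms in blue; the bar is the group mean and the whisker 1 SD. Klrc1 and Klrc3 are higher in telemetry rats without overlap in both arms, and Klrk1 is not.

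The inhibitory subunit Klrc1 read 5.73, 5.83, 4.94 and 5.45 in the 4 PEP telemetry rats, against 2.64, 3.41 and 4.47 (lowest, median, highest of 6) in PEP rats without the implant. In air rats it read 5.49, 5.18, 5.23 and 5.47 with telemetry, against 2.91, 3.50 and 3.81 without. Every telemetry value lay above every value without telemetry in the same arm. The difference was 2.00 ± 0.27 (SE) in PEP rats (limma adjusted p = 2.21e-06), and 1.90 ± 0.28 in air rats, a 3.72-fold change (adjusted p = 2.91e-05). All 8 telemetry arrays (4.94 to 5.83) also lay above all 61 arrays without telemetry, whatever their day or arm (2.61 to 4.81). The share of all probe sets that separate in this way was not counted, so how unusual it is cannot be said.

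Klrc3 differed by more, but from values at background. It read 4.38, 4.90, 3.56 and 5.52 in PEP telemetry rats, against 0.81, 1.15 and 1.81 (lowest, median, highest of 6) in PEP rats without telemetry. Air rats gave 2.13, 4.19, 5.03 and 4.86 with telemetry, against 1.10, 1.43 and 1.55 without. No groups overlapped, although Air_D21T replicate 1 stood far below the other 3 telemetry rats of its arm. The differences were 3.27 ± 0.43 (limma adjusted p = 1.88e-06) in PEP rats and 2.74 ± 0.44 (adjusted p = 2.16e-04) in air rats. On 42 of the 61 arrays without telemetry Klrc3 lay below the lower quartile of its array, and on none of the 8 telemetry arrays, so that the fold is taken against background.

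A second probe set, which matches both Klrc2 and Klrc3 and counts as neither gene's own, moved the same way. It read 3.90, 5.11, 2.42 and 3.02 in PEP telemetry rats, against 0.89, 1.48 and 2.15 in PEP rats without (difference 2.15 ± 0.33, limma adjusted p = 4.28e-05). In air rats it read 1.79, 2.98, 3.38 and 3.83 with telemetry, against 1.26, 1.52 and 1.99 without (1.46 ± 0.34, adjusted p = 0.0216). The activating Klrc2 and the Klrc3 transcript cannot be told apart in these values. The air groups overlapped through Air_D21T replicate 1, the rat that was also low in Klrc3.

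Klri2, of the activating pair with Klre1, read 2.89, 4.58, 2.11 and 1.60 in PEP telemetry rats, against 0.73, 1.25 and 2.71 in PEP rats without. In air rats it read 3.14, 2.44, 2.97 and 2.51 with telemetry, against 0.63, 1.26 and 1.56 without. The air groups were apart, and the PEP groups overlapped. The differences were 1.48 ± 0.29 (limma adjusted p = 0.00176) in PEP rats and 1.59 ± 0.30 (adjusted p = 0.00208) in air rats. Without PEP_D21T replicate 2, the highest array, the PEP difference was 0.95 and no longer passed (adjusted p = 0.0637). Klri2 lay below the lower quartile of its array on 52 of the 61 arrays without telemetry, so this fold too is taken against background.

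Klrd1, the partner of the Klrc chains, differed less. It read 6.55, 6.73, 5.95 and 6.52 in PEP telemetry rats, against 5.31, 5.51 and 5.72 in PEP rats without, and these groups did not overlap. In air rats it read 6.40, 6.14, 5.63 and 5.99 with telemetry, against 5.37, 5.51 and 5.83 without, with overlap. The difference passed in PEP rats (0.90 ± 0.18, a 1.87-fold change, limma adjusted p = 0.00248) and not in air rats (0.47 ± 0.19, adjusted p = 0.341).

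Ncr1 gave a like picture. Its values were 6.91, 6.79, 6.05 and 6.30 in PEP telemetry rats, against 4.74, 5.06 and 5.93 in PEP rats without. In air rats they were 5.93, 5.86, 5.88 and 5.55 with telemetry, against 5.12, 5.39 and 5.49 without. Neither pair of groups overlapped. The difference was 1.30 ± 0.22 in PEP rats, a 2.45-fold change (limma adjusted p = 1.82e-04), and 0.46 ± 0.23 in air rats, which did not pass (adjusted p = 0.518).

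Klrk1 stood apart from the others. It read 7.71, 7.22, 7.30 and 7.20 in PEP telemetry rats, against 7.55, 7.68 and 7.87 in PEP rats without. In air rats it read 7.63, 7.25, 7.26 and 7.16 with telemetry, against 7.37, 7.59 and 7.88 without. Both pairs of groups overlapped, with 1 telemetry rat of each arm among the rats without. Its differences of −0.31 ± 0.14 (limma adjusted p = 0.329) and −0.27 ± 0.14 (adjusted p = 0.567) did not pass, with 95% confidence intervals from −0.59 to −0.03 and from −0.56 to 0.02. The difference between the values of 2 receptors in the same rat was compared between rats with and without telemetry, for 15 pairs in each arm and 30 in all, by a 2-sided exact permutation test over 210 splits of the rats. Klrk1's shift differed from that of each of the other 5 in both arms: p was 0.0143 against Klri2 in PEP rats and 0.00476, the smallest these splits can give, in the other 9 cases. Over all pairs, 10 of 15 in PEP rats and 11 of 15 in air rats stayed under 0.05 after Benjamini-Hochberg adjustment over the 30. The receptors were listed with results of these arrays known, so these p-values describe them and are not independent evidence. The shifts of Klrc3 and Klri2 also start from background, unlike that of Klrk1.

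**Figure D2:**
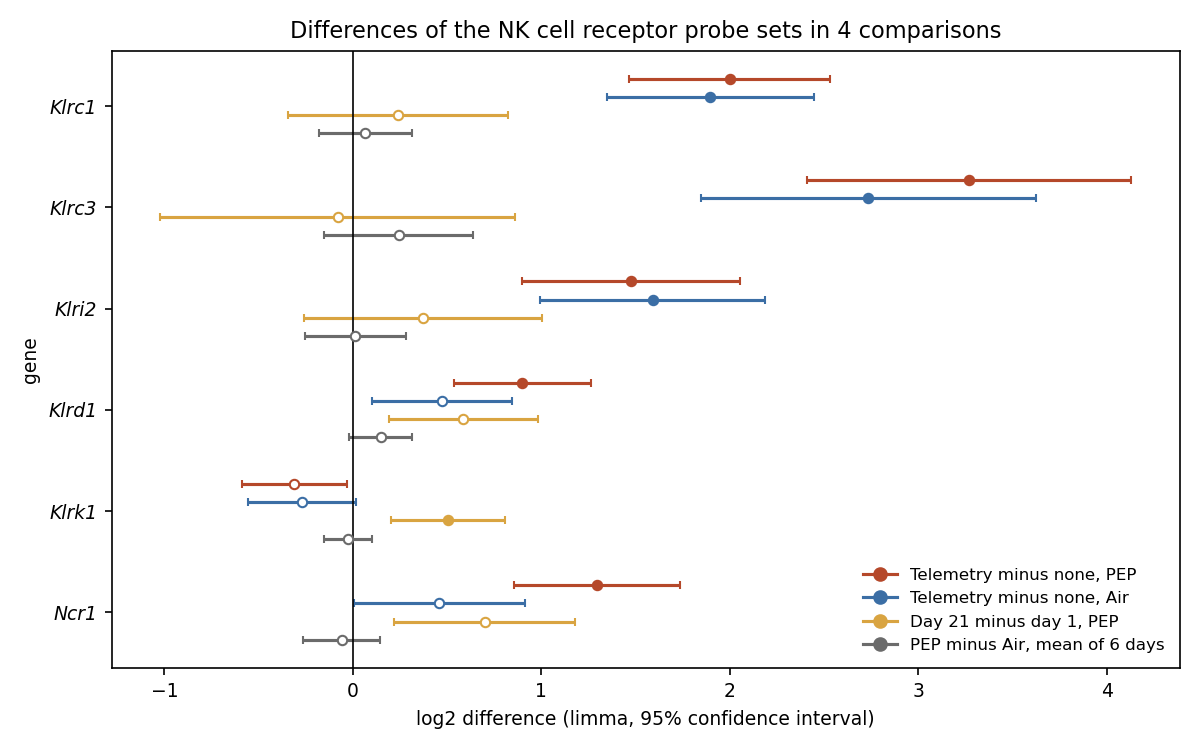
Log2 difference of each receptor in 4 comparisons, with 95% confidence intervals from limma. Filled points passed at an adjusted p under 0.05 over all probe sets. Klrc1, Klrc3 and Klri2 lie between 1.48 and 3.27 for telemetry in both arms, and no receptor passed for PEP minus air.

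Counted by overlap, the telemetry values of 4 of the 6 receptors lay wholly above those without telemetry in PEP rats (Klrc1, Klrc3, Klrd1 and Ncr1), against 1.55% of all probe sets. In air rats 4 of the 6 did so (Klrc1, Klrc3, Klri2 and Ncr1), against 0.966%. When the fit held only the 10 arrays of the 2 groups compared, in place of all 69, the adjusted p rose above 0.05 for Klrc1 (0.0559), Klri2 (0.293), Klrd1 (0.0573) and Ncr1 (0.0810) in PEP rats and for Klrc3 (0.0836) and Klri2 (0.0556) in air rats. Klrc3 in PEP rats (0.00534) and Klrc1 in air rats (0.0202) still passed.

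Whether the telemetry difference itself depended on exposure was tested as an interaction. No receptor passed, and 0% of all probe sets did (1 receptor and 1799 probe sets had an unadjusted p under 0.05). Among the receptors the interaction was largest for Ncr1 (0.84 ± 0.32, limma adjusted p = 0.805; unadjusted p = 0.0105), and it was 0.10 ± 0.38 for Klrc1, with a 95% interval from −0.67 to 0.87. For the others it was 0.53 ± 0.62 (Klrc3), −0.11 ± 0.41 (Klri2), 0.43 ± 0.26 (Klrd1) and −0.04 ± 0.20 (Klrk1). Single arrays moved several of these: Klrc3 was −0.02 without Air_D21T replicate 1, Klri2 was −0.64 without PEP_D21T replicate 2 and 0.19 without PEP_D21T replicate 4, and Klrc1 lay between −0.10 and 0.34 over the arrays left out. In the direct comparison of PEP and air rats with telemetry no receptor passed either, where 0.00585% of all probe sets did. Ncr1 read 6.05 to 6.91 in PEP telemetry rats and 5.55 to 5.93 in air telemetry rats, without overlap (1.38% of all probe sets separated this way), and its difference of 0.72 ± 0.25 had an adjusted p of 0.761. The other 5 lay between 0.06 ± 0.32 (Klri2) and 0.40 ± 0.20 (Klrd1), with Klrc1 at 0.16 ± 0.30, Klrc3 at 0.38 ± 0.48 and Klrk1 at 0.07 ± 0.15.

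The telemetry rats topped the order of all 14 groups in 5 of the 6 receptors. For Klrc1 the group means in falling order were 5.49 ± 0.40 in PEP_D21T (SD, n = 4), 5.34 ± 0.16 in Air_D21T (n = 4), 4.17 ± 0.45 in Air_D17 (n = 4) and 3.92 ± 0.52 in PEP_D9 (n = 5), with 3.06 ± 0.33 in Air_D9 (n = 5) last. The telemetry groups were closer to each other than their spread, and the step below them was larger than the SD of any group named. For Klrd1 the order was PEP_D21T (6.44 ± 0.33), Air_D21T (6.04 ± 0.32) and PEP_D17 (5.78 ± 0.27), with the second and the third closer than their SD. For Ncr1 it was PEP_D21T (6.51 ± 0.40), Air_D21T (5.81 ± 0.17), PEP_D9 (5.59 ± 0.28) and PEP_D17 (5.58 ± 0.21). Klrk1 was again the exception, with PEP_D21T and Air_D21T in places 11 and 12 and PEP_D21 (7.68 ± 0.11) at the top.

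Single rats without telemetry also reached telemetry values in some receptors. Klrc3 was at or above the lowest telemetry array (2.13) on 9 of the 61 arrays: PEP_D9 replicates 2 (2.74) and 4 (3.79), PEP_D17 replicates 2 (3.35), 3 (2.46) and 5 (3.63), Air_D13 replicates 3 (2.47) and 4 (3.53), PEP_D5 replicate 1 (2.66) and PEP_D1 replicate 3 (2.24). These arrays came from 5 groups of both arms. The counts of arrays at or above the lowest telemetry value were 5 for Klri2, 13 for Klrd1, 14 for Ncr1, 52 for Klrk1 and 0 for Klrc1.

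**Figure D3:**
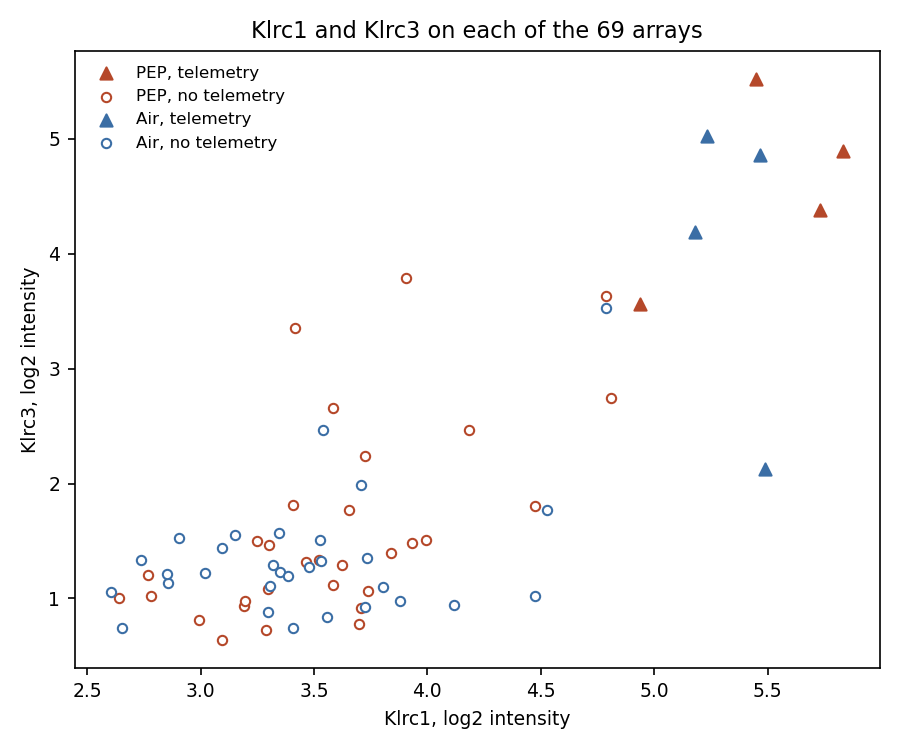
Log2 intensity of Klrc1 (horizontal) and Klrc3 (vertical) on each of the 69 arrays. The 8 telemetry arrays (triangles) all lie right of the others on the Klrc1 axis (4.94 to 5.83), whereas several arrays without telemetry reach telemetry values of Klrc3.

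Over the 61 arrays without telemetry the receptors varied together only in part. After the group means were taken out, Pearson r was 0.54 between Klrc1 and Klrc3, 0.47 between Klrc3 and Klri2, 0.42 between Klrd1 and Klrk1, 0.41 between Klrc1 and Ncr1 and 0.38 between Klrd1 and Ncr1. It was −0.03 between Klrc3 and Klrk1. These are descriptions, as the arrays share their normalization and the Klrc probe sets read related sequences. The genes outside the list most like the mean of the receptors over all 69 arrays were Ccl5 (r = 0.85), Nkg7 (0.84), Gzmk (0.82), Prf1 (0.81), Serpinb9 (0.77), Gzma (0.76), Clic5 (0.75), Cdhr1 (0.74), Klrb1a (0.74) and Gzmm (0.73). With the group means taken out these values lay between 0.34 (Gzmm) and 0.71 (Prf1).

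The cytotoxic granule and effector genes differed with telemetry too. In PEP rats 8 of 15 measured genes passed as higher and none as lower (median 0.94). They included the granule proteases Gzma (2.07 ± 0.29, limma adjusted p = 3.83e-06) and Gzmm (1.03 ± 0.16, adjusted p = 5.42e-05), the granule protein Nkg7 (1.60 ± 0.25, adjusted p = 5.67e-05) and the chemokine Ccl5 (1.40 ± 0.19, adjusted p = 2.21e-06). Among the genes most like the receptors, the protease Gzmk (1.82 ± 0.30, limma adjusted p = 8.80e-05) and Prf1, which forms the pore in the target membrane (0.87 ± 0.18, adjusted p = 0.00284), were higher too. That likeness was taken over all arrays, those with telemetry included, so the differences of genes picked by it are not separate evidence. In air rats 3 of the 15 passed as higher: Ccl5 (1.15 ± 0.19, adjusted p = 4.13e-04), Gzmm (0.85 ± 0.16, adjusted p = 0.00304) and Ccl4 (1.07 ± 0.26, adjusted p = 0.0288). The mean of the list averaged 6.25 in PEP telemetry rats and 5.34 in PEP rats without, and 5.86 in air telemetry rats and 5.45 in air rats without (n = 4 and n = 6 in each arm).

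Among the other NK receptors 5 of 19 measured genes passed as higher in PEP telemetry rats, and none passed in air telemetry rats (5 of the 19 had an unadjusted p under 0.05). These were Klrb1b (1.37 ± 0.27, limma adjusted p = 0.00211), a C-type lectin-like receptor, Fcgr3a (1.21 ± 0.27, adjusted p = 0.00815), the Fc receptor that reads bound antibody, Klrb1a (1.11 ± 0.24, adjusted p = 0.00742), Klrg1 (1.03 ± 0.20, adjusted p = 0.00175) and Klre1 (0.73 ± 0.15, adjusted p = 0.00235), the partner of the Klri chains. Klre1 read 1.04 to 1.31 in PEP rats without telemetry, below the lower quartile of these arrays (1.41 to 1.49), so its difference is taken against background. In air rats it read 1.14 to 1.59 with telemetry (mean 1.33) and 1.00 to 1.60 without (mean 1.28), around that quartile in both groups. It did not pass there. The adaptors and kinases that carry the signals of activating receptors gave 0 of 10 measured genes in either arm (4 in PEP and 1 in air rats had an unadjusted p under 0.05), with Tyrobp at 0.55 ± 0.24 (adjusted p = 0.310) and Hcst, the partner of Klrk1, at 0.41 ± 0.20 (adjusted p = 0.374) in PEP rats. None of 3 inhibitory phosphatases and none of 12 measured receptor ligands passed in either arm.

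Of 8 measured NK transcription factors, Tbx21, which drives NK and effector T cell programmes, was higher in PEP telemetry rats (1.20 ± 0.22, limma adjusted p = 7.44e-04). Tox (−0.83 ± 0.14, adjusted p = 1.11e-04) and Gata3 (−0.48 ± 0.13, adjusted p = 0.0437) were lower, and in air rats none passed. Among 8 measured cytokine and trafficking receptors Cxcr6 (1.40 ± 0.27, adjusted p = 0.00119) and Cx3cr1 (1.07 ± 0.25, adjusted p = 0.0113) were higher in PEP telemetry rats. In air rats none of the 8 passed (3 had an unadjusted p under 0.05), with Cxcr6 at 0.84 ± 0.28 (adjusted p = 0.196) and Cx3cr1 at 0.65 ± 0.25 (adjusted p = 0.336).

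**Figure D4:**
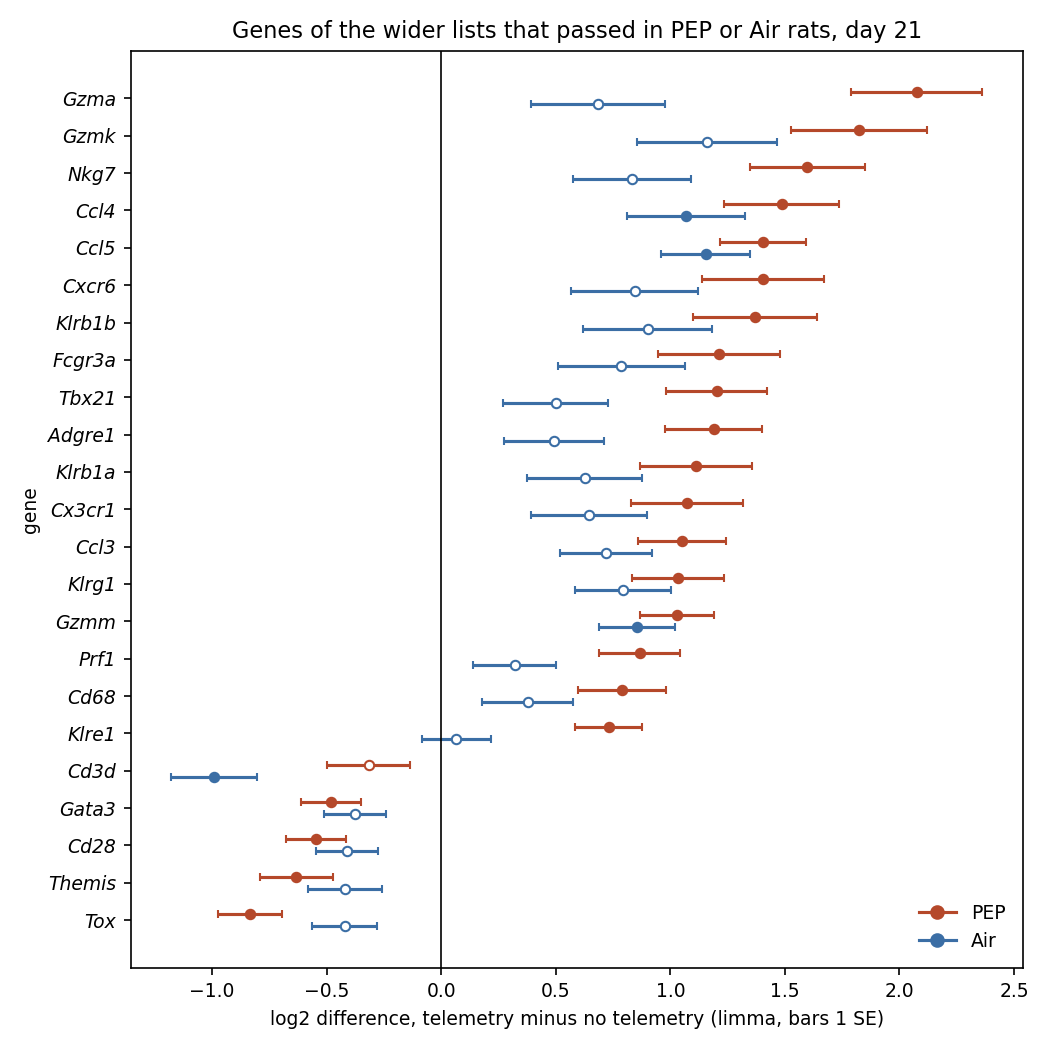
Log2 difference between rats with and without telemetry (limma, bars 1 SE) of the genes of the wider lists that passed in at least 1 arm, PEP in red and air in blue. Filled points passed. Cytotoxic genes such as Gzma (2.07 in PEP rats) and monocyte markers such as Adgre1 lie to the right. The T cell genes Cd28 and Themis and the transcription factor Tox lie to the left.

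Markers of other blood cells differed with telemetry as well. Of 10 T cell markers, Cd28 (−0.55 ± 0.13, limma adjusted p = 0.0165) and Themis (−0.63 ± 0.16, adjusted p = 0.0233) were lower in PEP telemetry rats and Cd3d (−0.99 ± 0.19, adjusted p = 0.00213) in air telemetry rats, while Cd8a and Cd8b did not pass. The list mean per array was 7.63 to 7.84 in PEP telemetry rats against 7.88 to 8.13 without, and 7.32 to 7.80 in air telemetry rats against 7.65 to 8.04. Of 6 measured monocyte markers Adgre1 (1.19 ± 0.21, adjusted p = 4.25e-04), Cx3cr1 and Cd68 (0.79 ± 0.19, adjusted p = 0.0201) were higher in PEP telemetry rats, with list means of 7.12 to 8.003 against 6.46 to 7.16. In air rats no monocyte marker passed (7.35 to 7.53 against 6.90 to 7.63). B cell, neutrophil, platelet and erythroid markers gave no call in either arm. The NK marker list, of which 3 of 7 measured genes are receptors described here, lay at 6.52 to 7.14 in PEP telemetry rats against 5.46 to 6.20, and at 6.15 to 6.59 in air telemetry rats against 5.74 to 6.22. Of these 7 genes, 5 passed as higher in PEP rats and 1 was lower. In air rats none passed, with 5 higher and 2 lower. The protease Gzmb averaged 3.42 with telemetry and 4.04 without in air rats, but 4.20 and 3.19 in PEP rats. The part of the blood's cell composition in the receptor differences was not tested. Lower quartiles of the arrays, a measure of background, were alike between telemetry rats (1.42 to 1.51) and day 21 rats without (1.41 to 1.49).

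The study set PEPs against filtered air, and in that comparison no receptor passed on any day. The number of receptors with an unadjusted p under 0.05 was 0, 1, 2, 1, 2 and 0 on days 1, 5, 9, 13, 17 and 21, beside 1667 to 2633 of all probe sets on these days. On day 1 the differences lay between −0.51 (Ncr1) and −0.02 (Klrc3), none passed, and 0% of probe sets did. On day 5 the differences lay between −0.57 (Ncr1) and 0.25 (Klrc1), with 0% of probe sets passing. On day 9 Klrc1 read 3.70, 4.81, 3.71, 3.90 and 3.46 in PEP rats, against 2.61, 2.85, 3.35, 3.09 and 3.39 in air rats, without overlap (0.723% of probe sets separated this way). Its difference of 0.85 ± 0.31 had an adjusted p of 0.514 in limma, and 0.00585% of probe sets passed. Ncr1 stood at 0.64 ± 0.26 on that day (adjusted p = 0.575). On day 13 Klrd1 stood at 0.40 ± 0.19 (adjusted p = 0.625), again with 0.00585% of probe sets passing.

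On day 17 Klrc3 stood at 1.10 ± 0.50 and Klrd1 at 0.58 ± 0.21 (limma adjusted p = 1.00 and 0.917), and 0% of probe sets passed. The paper lists Klrc3 among the genes higher in PEP blood on day 17, by a fold threshold and a p under 0.05. Here its change was 2.15-fold with an unadjusted limma p of 0.0319, and only the threshold on the adjusted p was missed. Klrc3 lay below the lower quartile of its array on 2 of 5 PEP and 3 of 4 air arrays of that day. This fold is therefore also taken against background. With 1 array left out, its difference lay between 0.64 (without PEP_D17 replicate 5) and 1.51 (without PEP_D17 replicate 4). On day 21 the differences lay between −0.15 and 0.17, the narrowest range of any day, with 0% of probe sets passing. Over the mean of the 6 days the receptors lay between −0.06 ± 0.10 (Ncr1) and 0.24 ± 0.20 (Klrc3), none passed, and 0% of probe sets did (0 receptors and 2108 probe sets at an unadjusted p under 0.05). The 95% intervals of that mean were −0.18 to 0.31 for Klrc1, −0.02 to 0.32 for Klrd1 and −0.15 to 0.10 for Klrk1. Whether the effect of exposure differed between the days was asked with an F-test, which no receptor and 0% of probe sets passed (adjusted p = 0.619 for Ncr1 and 0.625 for Klrd1, with unadjusted p = 0.0186 and 0.0216).

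Each receptor's difference between PEP and air rats varied in sign and size over the days. For the inhibitory Klrc1 it was −0.14, 0.25, 0.85, −0.25, −0.37 and 0.05 on days 1, 5, 9, 13, 17 and 21, and for Klrc3 it was −0.02, 0.23, 0.67, −0.37, 1.10 and −0.15. No single day passed for either chain, and single arrays set some of these signs. Without Air_D13 replicate 4 the day 13 differences were 0.01 for Klrc1 and 0.05 for Klrc3, and without PEP_D9 replicate 4 the day 9 difference of Klrc3 was 0.22. For their partner Klrd1 it was −0.42, 0.06, 0.30, 0.40, 0.58 and −0.03 over the same days. For Klri2 it was −0.25, 0.20, 0.01, −0.26, 0.20 and 0.17. The activating receptors Ncr1 and Klrk1 did not pass on any day either. Ncr1 stood at −0.51, −0.57, 0.64, 0.11, 0.10 and −0.12, and Klrk1 at −0.34, −0.02, −0.13, 0.08, 0.15 and 0.11.

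**Figure D5:**
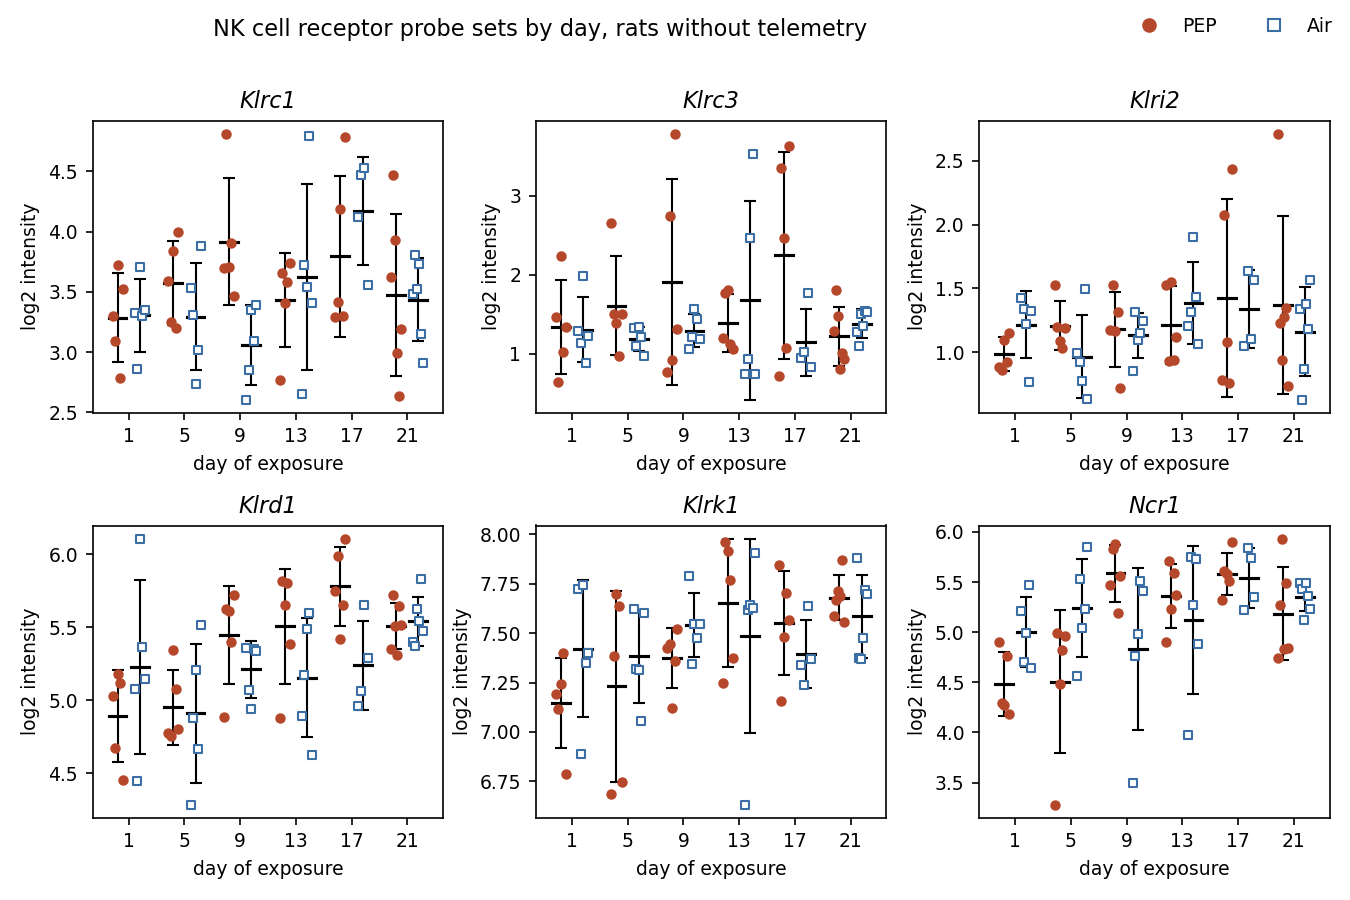
Log2 intensity of the 6 receptor probe sets by day of exposure in rats without telemetry. Filled circles are PEP rats, open squares air rats, with the group mean (bar) and 1 SD (whisker). The arms overlap on every day but day 9 for Klrc1, and Klrd1, Klrk1 and Ncr1 are low in PEP rats on days 1 and 5.

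Over the days, the group means of Klrd1 (4.89), Klrk1 (7.15) and Ncr1 (4.48) were lowest in PEP rats on day 1. Those of PEP rats on day 5 (4.95, 7.23 and 4.51) were closer to them than their SD. In the F-test over the 6 days, Klrd1 (adjusted p = 0.0178 in limma) and Ncr1 (adjusted p = 0.0112) changed in the PEP arm and Klrk1 (0.0743), Klrc3 (0.433), Klrc1 (0.548) and Klri2 (0.834) did not pass, where 4.71% of probe sets passed. In air rats no receptor passed, where 1.81% of probe sets did (unadjusted p = 0.0249 for Klrc1 and 0.0437 for Klrd1 in limma). The count of 2 in PEP rats was 0 with the lower quartile of each array as a covariate, 1 under cyclic loess, 1 without arrays of weight under 0.5 and 1 without PEP_D1 replicate 2.

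Klrk1 read 7.55, 7.68 and 7.87 (lowest, median, highest of 6) in PEP rats of day 21, against 7.19, 7.12, 7.24, 7.40 and 6.79 on day 1, without overlap (3.23% of probe sets separated this way). It was the only receptor to pass between these days in PEP rats (0.51 ± 0.15, limma adjusted p = 0.0278), where 4.68% of probe sets passed as higher. Klrd1 (0.59 ± 0.20, adjusted p = 0.0519) and Ncr1 (0.70 ± 0.24, adjusted p = 0.0572) missed the threshold narrowly in this fit. In alternative fits their differences were as low as 0.25 and 0.31, with limma adjusted p up to 0.797 and 0.804. Klri2 (0.37 ± 0.32), Klrc1 (0.24 ± 0.29) and Klrc3 (−0.08 ± 0.47) did not pass. The Klrk1 call was lost without PEP_D1 replicate 1, 2 or 5 or PEP_D21 replicate 5 (adjusted p = 0.0540, 0.0759, 0.0695 and 0.0682), and its difference was 0.19 with the lower quartile of each array as a covariate. That quartile lay between 1.41 and 1.49 in PEP rats of day 21 and between 1.54 and 1.74 on day 1. In air rats no receptor passed between days 21 and 1, where 1.97% of probe sets did (0 receptors at an unadjusted p under 0.05), and the differences lay between −0.05 ± 0.31 (Klri2) and 0.31 ± 0.23 (Ncr1), with Klrk1 at 0.06 ± 0.15.

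T cell markers were also higher. In PEP rats 6 of 10 passed as higher on day 21 (median 0.52), among them Themis (0.81 ± 0.17, limma adjusted p = 0.00217), Cd5 (0.54 ± 0.13, adjusted p = 0.00447), Cd4 (0.69 ± 0.16, adjusted p = 0.00504) and Cd28 (0.54 ± 0.14, adjusted p = 0.0126). The list mean per array was 7.88 to 8.13 on day 21 and 7.29 to 7.69 on day 1. That of 4 erythroid markers was 10.04 to 10.63 on day 21 and 10.93 to 11.35 on day 1. All 4 erythroid markers were lower and 2 passed. In air rats all 4 were lower too, and 1 passed. The part of the T cell and erythroid markers in the Klrk1 difference was not tested. Lists of NK genes were higher in this comparison too. All 7 measured NK markers, of which 3 are receptors described here, were higher and 2 passed (median 0.51). Of the adaptors and kinases 10 of 10 were higher and 2 passed (median 0.44), and 3 of 8 NK transcription factors passed as higher. None of 19 other NK receptors passed. The kinase Zap70, from the adaptor list and also used by the T cell receptor, stood at 0.55 ± 0.14 (limma adjusted p = 0.0128). The part of these lists in the Klrk1 difference was not tested either. The PEP rats of day 21 without telemetry enter both this comparison and the one with telemetry.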

How the data were processed

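Whole blood RNA was hybridised to Affymetrix Rat Gene ST 2.1 arrays. The authors summarised probe sets by RMA (robust multi-array averaging, oligo package, R 3.4), and their deposited log2 intensities were taken as they are. The submitters' processing notes also name limma. Arrays give no counts, so precision rests on the number of arrays. Probe sets that varied little (variance below 0.05, 2509 of 36685) were dropped, leaving 34176.

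All 69 arrays entered a single linear model with a mean for each of the 14 groups (limma 3.58.1 under R 4.3.3, gene-by-gene array weights, empirical Bayes). P-values were adjusted by Benjamini-Hochberg over the 34176 probe sets of a comparison. The ± of a difference is its SE, and that of a group mean is the SD. Replicates are labelled as separate samples, and p-values measure the spread between these samples. The fit was tested on simulated data. The naming rule took every receptor in every comparison, up to 4 genes by smallest p of each wider list where any passed, and the 10 genes most like the receptor mean. Fcgr3a, Tyrobp, Hcst, Cd8a, Cd8b, Gzmb and the air values of Klre1, Cxcr6 and Cx3cr1 were named after their values were seen. The receptors and the lists were chosen with earlier results of these data known. Alternatives were no weights, no variance filter, only the arrays compared, cyclic loess, a replicate block, no arrays of weight under 0.5, the lower quartile as a covariate, a trended robust prior, and each array left out with the array weights of the full fit. The mean of all probe sets of a gene is the same value here, as each gene has 1.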

Additional observations from a re-analysis of the deposited data

Results flagged for a closer look

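Dixon's test was run for each of the 6 receptors in each of the 14 groups, 84 times in all, and it picks out about 1 in 20 groups by chance. It picked out 2. Klri2 read 2.71 on PEP_D21 replicate 1, against 0.73 to 1.34 on the other 5 arrays of that group. This rat belongs to the PEP group without telemetry, and its value lies above those of 2 of the 4 PEP telemetry rats. Klrk1 read 6.63 on Air_D13 replicate 1, against 7.62 to 7.91 on the other 4 arrays, and this array was among the 4 with a weight under 0.5.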

How the results depend on the processing

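Of 442 alternative values of the 16 medians and counts over the receptors, 438 moved by less than 1 SD of the receptor mean between replicates (counts, by at most 1.5 times) and 4 moved further, all in 1 result: the count of receptors that changed over the 6 days in PEP rats was 2, and it was 1 under cyclic loess, 1 without arrays of weight under 0.5, 0 with the lower quartile as a covariate, and between 1 and 3 with 1 array left out, and the cause was not tested. Medians that had no call changed sign under 8 of these alternatives: with 1 array left out the median lay between −0.20 and 0.06 on day 13, −0.10 and 0.07 on day 21 and −0.01 and 0.07 over the 6 days. That of day 9 lay between 0.27 and 0.53, that of the telemetry interaction between 0.10 and 0.45, and that of days 21 and 1 in air between 0.01 and 0.19. For single receptors 1752 of 1776 alternative values kept their call, 16 lost it and 8 gained it, and no called value changed sign. The losses were the Klrk1 difference between days 21 and 1 in PEP rats and, with telemetry, the fits on only the arrays compared and Klri2 without PEP_D21T replicate 2. Klrk1 lost its call in PEP rats without array weights (adjusted p = 0.0529), in the fit on only the arrays compared (0.0527), under cyclic loess (0.128), without arrays of low weight (0.0511) and with the lower quartile as a covariate (0.795). The gains were Klrd1 and Ncr1 between the same days. With the replicate block Ncr1 between days 21 and 1 in PEP rats was 0.74 (adjusted p = 0.0483), and the block changed no other call. For Klri2, Klrc3 and Klre1 without telemetry the signal at background limits what a fold can say. Same-numbered arrays of compared groups correlated between −0.08 and 0.25 in their deviations from the group means, so the numbers were not taken to pair rats.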
